A study of Homo sapiens with 12 samples.

Results

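AP-1 and other immediate early genes were followed in OPM2, an established multiple myeloma cell line of human plasma cell origin, 2 h after addition of a small molecule. The set was chosen by symbol, with earlier results of these data known, and holds 38 genes in 11 families. Each of the 38 matched 1 of the 63152 gene identifiers in the deposited count table, and 29 of them were among the 13180 genes with enough reads to be tested. The 4 groups were DMSO vehicle, JQ1 at 250 nM, BKM120 at 1 µM and 18DS at 250 nM, with 3 libraries each that the submitters describe as biological triplicates. JQ1 blocks the bromodomains of BET proteins, which bind acetylated histones. BKM120, also called buparlisib, blocks PI3K, a lipid kinase of growth signalling, and 18DS is a chimeric compound made to inhibit both PI3K and BET proteins. All 12 libraries come from 1 cell line at 1 time, no library received JQ1 and BKM120 together, and BKM120 was given at another dose than the other compounds. Poly(A) RNA was read at its 3' end by QuantSeq, which gives about 1 tag per transcript.

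Immediate early genes are switched on within minutes of a growth factor, cytokine or stress, from promoters that need no new protein. AP-1 is a dimer of a Jun protein with another Jun, a Fos or an ATF protein, held together by a leucine zipper, and binds short DNA sites in many growth and stress genes. MAP kinases raise AP-1 by phosphorylating Jun and by switching on *FOS* through serum response factor (SRF) bound at CArG boxes. Most immediate early transcripts are short-lived, and ZFP36 proteins that bind AU-rich elements hasten their decay. BET proteins and the elongation kinase P-TEFb take part in the release of paused polymerase at many of these genes.

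Total counts were 5501895 to 7692013 per library, and the 38 genes held 0.115% to 0.120% of counts in DMSO, 0.146% to 0.151% with JQ1, 0.0926% to 0.0946% with BKM120 and 0.139% to 0.156% with 18DS. On the third principal component of all tested genes, 18DS replicate 2 scored 21.8, far from 18DS replicates 1 and 3 at -12.54 and -8.004. Calls of the set that changed without it are given with and without it. All 12 plasma cell markers were tested, with a summed level of 5891 to 6745 CPM (reads per 1e+06 reads of the library). None of the T and NK cell, epithelial, fibroblast or B cell markers passed the filter, and 1 of 7 myeloid markers did. *CD3D*, *NKG7*, *FCGR3A*, *COL3A1*, *PDGFRB* and *MS4A1* had 0 reads in all libraries.

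The promoters of 5 of these genes are printed here, because the genes rose with JQ1 and 18DS (*JUN*, *JUND*, *IER5*), fell with BKM120 (*SRF*) or stayed near 0 reads in every group (*EGR1*). Each window runs from 250 bases before to 50 bases after the start of the gene, on the gene's own strand. The sequences are from RefSeq on GRCh38.p14, at chr1:58783998-58784297 (minus strand) for *JUN*, chr19:18281573-18281872 (minus) for *JUND*, chr1:181088450-181088749 (plus) for *IER5*, chr6:43171019-43171318 (plus) for *SRF* and chr5:138465229-138465528 (plus) for *EGR1*. Capitals mark a heat shock inverted repeat (GAANNTTC) in *JUN* and *IER5*, a cyclic AMP response element (TGACGTCA) in *JUND* and CArG boxes, the motif bound by SRF, in *SRF* and *EGR1*.
JUN: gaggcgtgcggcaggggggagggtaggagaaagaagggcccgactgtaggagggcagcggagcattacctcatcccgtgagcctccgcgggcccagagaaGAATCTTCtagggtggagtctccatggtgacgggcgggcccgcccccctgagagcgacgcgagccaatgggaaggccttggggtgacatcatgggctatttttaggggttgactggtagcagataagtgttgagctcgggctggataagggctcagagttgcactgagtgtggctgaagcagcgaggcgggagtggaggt
JUND: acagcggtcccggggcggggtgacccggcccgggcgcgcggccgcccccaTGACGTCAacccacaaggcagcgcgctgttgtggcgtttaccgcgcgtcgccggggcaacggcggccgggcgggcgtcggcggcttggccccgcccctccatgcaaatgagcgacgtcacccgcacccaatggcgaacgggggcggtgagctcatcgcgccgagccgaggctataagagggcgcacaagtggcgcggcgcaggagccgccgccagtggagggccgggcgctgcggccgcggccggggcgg
IER5: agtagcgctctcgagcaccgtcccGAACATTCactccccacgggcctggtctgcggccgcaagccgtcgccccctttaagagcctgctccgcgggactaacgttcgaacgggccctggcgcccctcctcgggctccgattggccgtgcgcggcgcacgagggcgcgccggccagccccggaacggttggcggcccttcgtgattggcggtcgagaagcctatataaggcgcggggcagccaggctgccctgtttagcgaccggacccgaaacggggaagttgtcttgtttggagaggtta
SRF: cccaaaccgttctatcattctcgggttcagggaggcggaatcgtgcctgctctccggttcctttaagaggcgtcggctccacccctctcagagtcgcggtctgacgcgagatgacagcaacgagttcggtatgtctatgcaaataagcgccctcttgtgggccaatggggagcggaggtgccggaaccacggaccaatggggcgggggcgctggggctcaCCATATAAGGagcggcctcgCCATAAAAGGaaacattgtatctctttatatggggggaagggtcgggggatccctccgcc
EGR1: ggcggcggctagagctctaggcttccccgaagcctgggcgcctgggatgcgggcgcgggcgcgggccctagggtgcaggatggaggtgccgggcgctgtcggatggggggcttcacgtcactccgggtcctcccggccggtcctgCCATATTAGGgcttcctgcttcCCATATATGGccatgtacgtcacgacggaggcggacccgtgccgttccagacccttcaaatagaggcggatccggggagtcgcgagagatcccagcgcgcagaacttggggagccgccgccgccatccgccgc

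Both strands of all 35116 RefSeq windows of this length, from 27305 genes, were searched, and 30 of the 38 genes had at least 1 window (40 windows). CArG boxes were in the windows of 3 of the 30 genes (*EGR1*, *EGR2* and *SRF*) and in those of 1.6% of all 27305 genes. *SRF* and *EGR1* each hold a pair of CArG boxes that do not overlap, in *SRF* at -30 to -21 and -10 to -1 and in *EGR1* at -105 to -96 and -83 to -74, counted from the start. The cyclic AMP response element was in 3 of the 30 (*JUND*, *MAFF* and *ZFP36L1*) and in 2.25% of all genes. The heat shock repeat was in 6 (*HES1*, *ID1*, *IER5*, *IER5L*, *JUN* and *ZFP36L1*) and in 8.21% of all genes. The AP-1 site TGANTCA was found in *FOSL2* and in 9.37% of all genes, and the FOXO site GTAAACA in *JUNB* and in 4.19%. The E-box CACGTG was in 6 of the 30 genes (8.77% of all genes), the TATA box TATAAA on the gene's strand in 6 (8.99%) and the EGR site GCGTGGGCG in 0 (0.96%). These matches describe the letters in the windows only.

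With JQ1 the set rose more often than it fell, with BKM120 it fell more often, and with 18DS it rose more often again. Of 29 tested genes, 11 were higher with JQ1 than in DMSO, where 2.63% of all tested genes were higher, and 3 were lower (3.45% of all). With BKM120 4 were higher (4.07% of all tested genes) and 7 lower (4.14%), and with 18DS 12 were higher (9.96%) and 7 lower (11.0%). The genes were chosen with earlier results of these data known, so these shares describe the set and do not test it. A gene was called higher or lower at an edgeR adjusted p under 0.05, with the adjustment over all 13180 genes. The median log2 fold change over the 29 genes was 0.24 with JQ1, -0.25 with BKM120 and 0.42 with 18DS, against 0.003, 0.0002 and -0.003 over all tested genes. *NR4A2*, counted as higher with BKM120, and *NR4A1*, counted as lower with 18DS, passed the filter only through the group where they are high, and without them 3 of 27 genes were higher with BKM120 and 6 lower with 18DS. These 3 comparisons share the DMSO libraries. Groups without overlap, described for single genes below, are common in these data. All libraries lay above all of DMSO in 12.2% of all tested genes with JQ1, 13.7% with BKM120 and 16.9% with 18DS. They lay below all of DMSO in 13.2%, 14.5% and 18.4%. In bulk RNA, fewer cells that make a transcript and less of it per cell cannot be told apart. Without 18DS replicate 2, 14 of the 29 genes were higher with 18DS, *ZFP36* and *ID2* in addition. Then 6 of the 29 were lower, with *NR4A1* still among them and *SIK1* not. With any 1 library left out, 1909 to 3026 of all genes were called in this comparison, against 2769 with all libraries.

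Heat shock genes, which respond to handling and to unfolded protein, moved with the compounds as well. The summed level of 14 such genes was 5032 to 5309 CPM in DMSO, 5774 to 6072 CPM with JQ1, 4442 to 4638 CPM with BKM120 and 5468 to 5716 CPM with 18DS. Of 13 tested, 3 rose and 1 fell with JQ1 (2.63% and 3.45% of all tested genes), 5 fell with BKM120 (4.14%), and 4 rose and 1 fell with 18DS (9.96% and 11.0%). *DNAJB1*, a co-chaperone of HSP70, rose by 0.92 on the log2 scale with JQ1 (SE 0.09), fell by 0.76 with BKM120 (SE 0.09) and rose by 0.72 with 18DS (SE 0.09). *HSPA8*, the constitutive HSP70, rose by 0.42 with JQ1 (SE 0.07), fell by 0.50 with BKM120 (SE 0.07) and rose by 0.39 with 18DS (SE 0.07). *DNAJA1*, another co-chaperone, fell by 0.60 with BKM120 (SE 0.10) and was not called with JQ1 (0.15) or 18DS (-0.06). Their part in the results below was not tested.

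**Figure D1:**
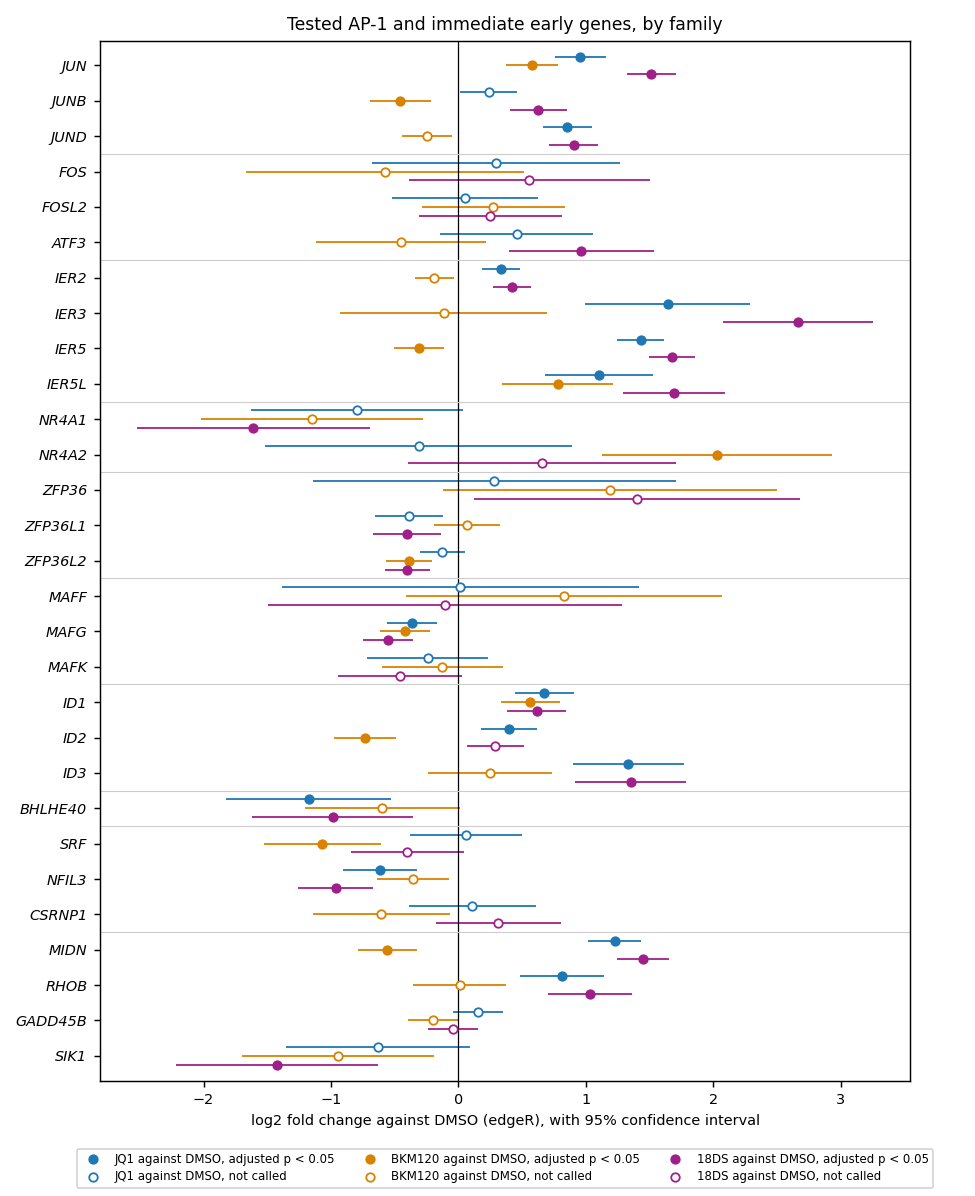
Log2 fold changes of the 29 tested genes against DMSO (x axis) by gene and family (y axis), for JQ1 (blue), BKM120 (orange) and 18DS (purple). Points are edgeR estimates, bars their 95% confidence intervals, and filled points passed an adjusted p under 0.05. The JQ1 and 18DS points of *JUN*, *JUND*, the IER genes, *ID3*, *MIDN* and *RHOB* lie to the right, and those of *MAFG*, *BHLHE40* and *NFIL3* to the left.

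The Jun genes encode the subunits found in most AP-1 dimers, and the 3 of them differed in their response to BKM120. *JUN* (ENSG00000177606), which encodes c-Jun, was at 27.2, 25.8 and 28.0 CPM in the DMSO libraries, at 54.0, 53.3 and 50.4 CPM with JQ1, at 41.2, 38.8 and 41.0 CPM with BKM120 and at 79.2, 74.8 and 77.5 CPM with 18DS. No 2 groups overlapped, with 18DS highest, JQ1 next, BKM120 below it and DMSO lowest. *JUN* rose by 0.96 on the log2 scale with JQ1 (SE 0.10, edgeR adjusted p = 6.68e-09), by 0.58 with BKM120 (SE 0.10, adjusted p = 0.000199) and by 1.52 with 18DS (SE 0.10, adjusted p = 1.16e-14). Group means were 27.0 ± 1.13 CPM in DMSO, 52.6 ± 1.93 with JQ1, 40.3 ± 1.31 with BKM120 and 77.2 ± 2.23 with 18DS (SD, n = 3). The 3 calls of *JUN* were kept when any 1 library was left out.

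*JUNB* (ENSG00000171223) encodes a Jun protein that can restrain c-Jun. Its libraries read 37.4, 44.6 and 45.8 CPM in DMSO, 46.1, 44.4 and 59.0 CPM with JQ1, 34.8, 27.9 and 30.5 CPM with BKM120 and 67.4, 64.3 and 65.7 CPM with 18DS. The 18DS libraries were above all others and the BKM120 libraries below all others, while JQ1 and DMSO overlapped. *JUNB* fell by 0.45 with BKM120 (SE 0.12, adjusted p = 0.0111) and rose by 0.63 with 18DS (SE 0.11, adjusted p = 5.34e-05). With JQ1 it differed from DMSO by 0.24 (SE 0.11, adjusted p = 0.246). The fall with BKM120 was not called without DMSO replicate 2, DMSO replicate 3 or BKM120 replicate 2 (adjusted p = 0.0543, 0.0611 and 0.0508).

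*JUND* (ENSG00000130522), the Jun gene with the most constant expression in many cells, was at 91.6, 64.7 and 83.6 CPM in DMSO, 153, 143 and 139 CPM with JQ1, 71.3, 63.0 and 68.3 CPM with BKM120 and 152, 144 and 154 CPM with 18DS. The JQ1 and 18DS libraries overlapped each other and lay above all DMSO and BKM120 libraries, which also overlapped. *JUND* rose by 0.86 with JQ1 (SE 0.09, adjusted p = 4.01e-08) and by 0.91 with 18DS (SE 0.09, adjusted p = 5.0e-09). With BKM120 it differed by -0.25 (SE 0.10, adjusted p = 0.112), and by -0.38 without DMSO replicate 2 (adjusted p = 0.0166), the lowest DMSO library.

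Fos proteins pair with Jun and cannot form dimers with each other. Their transcripts were scarce in these cells at 2 h. *FOS* (ENSG00000170345) had 15, 5 and 11 reads in DMSO, 19, 6 and 13 with JQ1, 2, 8 and 10 with BKM120 and 15, 10 and 21 with 18DS, and the groups overlapped. *FOS* reached the filter's level of 1.63 CPM in all 3 libraries of 18DS alone among the groups. Its log2 fold change against DMSO was 0.30 with JQ1 (95% confidence interval -0.68 to 1.27), -0.58 with BKM120 (-1.67 to 0.51) and 0.56 with 18DS (-0.39 to 1.5), so that a rise of 2-fold lies inside the JQ1 and 18DS intervals and a fall of 2-fold inside that of BKM120. *FOSB* (37 reads over 12 libraries) and *FOSL1* (35 reads) were not tested. *FOSB* also lies opposite to *ERCC1*, with 2901 reads. *FOSL2*, which encodes Fra-2, was at 3.44 to 7.55 CPM, and its log2 fold changes were 0.05 with JQ1, 0.28 with BKM120 and 0.25 with 18DS, none of them called.

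*ATF3* (ENSG00000162772), a stress-induced bZIP gene whose product pairs with Jun proteins, had 22, 22 and 23 reads in DMSO, 33, 26 and 33 with JQ1, 10, 23 and 15 with BKM120 and 38, 31 and 63 with 18DS. Every 18DS library was above every DMSO library, at 5.36, 5.44 and 9.95 CPM against 3.24 to 3.83 CPM. *ATF3* rose by 0.97 with 18DS (SE 0.28, adjusted p = 0.0121), and its differences of 0.46 with JQ1 and -0.45 with BKM120 were not called. The rise was 0.61 and not called without 18DS replicate 3 (adjusted p = 0.171), and 0.92 without DMSO replicate 1 (adjusted p = 0.0501). Of 13 tested bZIP partners of Fos and Jun, 1 fell with BKM120 (4.14% of all tested genes did), and with 18DS 1 rose (9.96% of all) and 2 fell (11.0%). *ATF4*, the effector of the integrated stress response, rose by 0.29 with 18DS (SE 0.07). *CEBPG* fell by 0.60 with 18DS (SE 0.15).

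The IER genes are short, rapidly induced genes named as immediate early response genes, and all 4 rose with JQ1 and with 18DS. *IER5* (ENSG00000162783), whose product acts on heat shock factor 1, was at 52.6, 55.4 and 60.0 CPM in DMSO, 147, 145 and 160 CPM with JQ1, 42.5, 45.8 and 47.4 CPM with BKM120 and 195, 160 and 181 CPM with 18DS. The JQ1 and 18DS libraries were far above DMSO and met at 160 CPM, and the BKM120 libraries were all below DMSO. *IER5* rose by 1.43 with JQ1 (SE 0.09, adjusted p = 1.31e-14) and by 1.68 with 18DS (SE 0.09, adjusted p = 1.44e-16). It fell by 0.31 with BKM120 (SE 0.10, adjusted p = 0.0399), and this call was lost whenever 1 DMSO or BKM120 library other than DMSO replicate 1 was left out (adjusted p = 0.0517 to 0.172).

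*IER2* (ENSG00000160888), a nuclear immediate early gene, was at 277, 316 and 324 CPM in DMSO, 375, 387 and 396 CPM with JQ1, 254, 268 and 284 CPM with BKM120 and 406, 400 and 424 CPM with 18DS. The 18DS libraries were the highest and the JQ1 libraries were above all of DMSO, with BKM120 and DMSO overlapping. It rose by 0.34 with JQ1 (SE 0.07, adjusted p = 0.00255) and by 0.42 with 18DS (SE 0.07, adjusted p = 5.76e-05), and differed by -0.19 with BKM120 (SE 0.07, adjusted p = 0.107). With library totals as the scaling the BKM120 difference was -0.22 (adjusted p = 0.0469).

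*IER5L* (ENSG00000188483), a relative of *IER5*, was at 4.86, 6.28 and 7.66 CPM in DMSO, 15.1, 12.4 and 12.8 CPM with JQ1, 10.9, 7.68 and 13.8 CPM with BKM120 and 17.9, 19.1 and 23.7 CPM with 18DS. Every treated library was above every DMSO library, BKM120 replicate 2 only just. It rose by 1.11 with JQ1 (SE 0.21, adjusted p = 0.000424), by 0.78 with BKM120 (SE 0.21, adjusted p = 0.0193) and by 1.7 with 18DS (SE 0.20, adjusted p = 5.25e-08). The BKM120 call was lost without DMSO replicate 1 or 2 or without BKM120 replicate 1 or 3 (adjusted p = 0.142, 0.0558, 0.0723 and 0.179). *IER3* (ENSG00000137331), an NF-kB target that acts on cell survival, had 12, 6 and 12 reads in DMSO, 27, 26 and 42 with JQ1, 13, 7 and 7 with BKM120 and 60, 63 and 70 with 18DS. It reached the filter's level in all JQ1 and 18DS libraries and in 3 of the other 6, enough to pass without JQ1 and 18DS. It rose by 1.64 with JQ1 (SE 0.32, adjusted p = 0.000665) and by 2.67 with 18DS (SE 0.29, adjusted p = 1.21e-08), and differed by -0.11 with BKM120 (SE 0.40). Reads of *IER3* and *IER5L* cannot be told apart from those of antisense genes on the opposite strand: *IER3-AS1* had 342 reads against 345 for *IER3*, and AL158151.3 had 766 against 956 for *IER5L*.

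**Figure D2:**
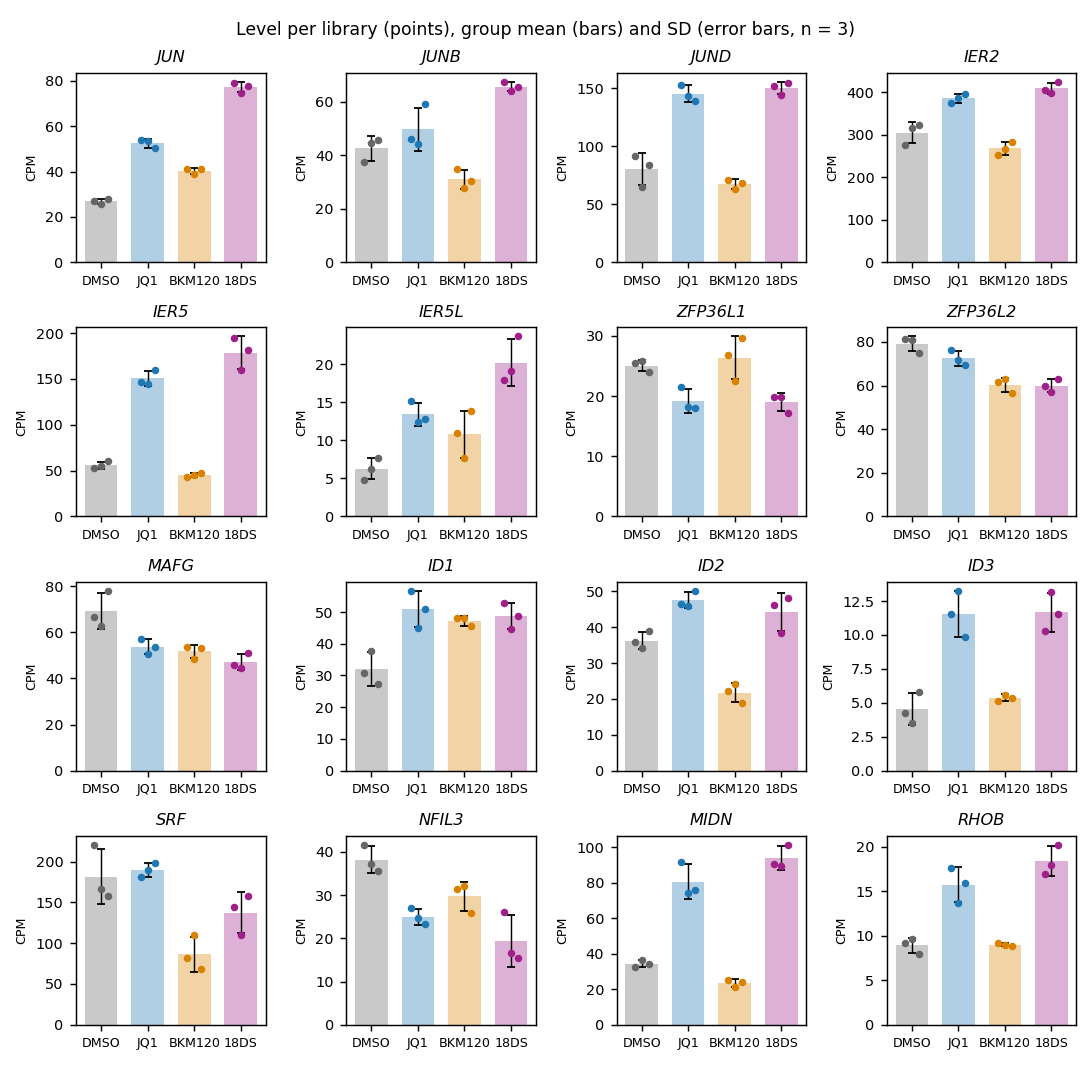
Levels in CPM (y axis, from 0) of 16 genes that average 5 CPM or more and have a call against DMSO, by group (x axis). Points are libraries, bars group means and error bars the SD of 3 libraries. The 4 groups of *JUN* do not overlap, the BKM120 libraries of *SRF*, *ID2* and *MIDN* lie below the other groups, and *ID3* and *JUND* are at like levels with JQ1 and 18DS.

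The EGR genes encode zinc finger factors that are a classic readout of MAP kinase signalling through SRF, and none could be tested. *EGR1* (ENSG00000120738) had 1, 2 and 1 reads in DMSO, 4, 2 and 5 with JQ1, 0, 2 and 2 with BKM120 and 3, 3 and 5 with 18DS. *EGR2* had 2 reads and 1 read in a pair of BKM120 libraries and 0 in the other 10 libraries. A count of 0 over the 3 libraries of a group allows up to 0.161 CPM in DMSO, 0.158 CPM with JQ1 and 0.152 CPM with 18DS, for counting error only. *EGR3* had 1 read in a DMSO library and 1 in an 18DS library. Of 8 tested corepressors and zinc finger relatives of the EGR family, 1 fell with JQ1 (3.45% of all tested genes did), 1 with BKM120 (4.14%) and 3 with 18DS (11.0%). *WT1*, whose product binds sites like those of EGR1, fell by 1.18 with JQ1 (SE 0.30), by 2.29 with BKM120 (SE 0.34) and by 1.77 with 18DS (SE 0.32), from 8.71 ± 3.86 CPM in DMSO (SD, n = 3). *KLF11* fell by 1.71 (SE 0.37) and *SP1* by 0.64 (SE 0.18) with 18DS.

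*SRF* (ENSG00000112658) encodes the factor that binds CArG boxes, including those printed above from its own promoter. It was at 221, 167 and 157 CPM in DMSO, 181, 190 and 198 CPM with JQ1, 81.6, 110 and 67.7 CPM with BKM120 and 144, 110 and 158 CPM with 18DS. The BKM120 libraries were below all others, with their highest at 109.6 CPM just under the lowest 18DS library at 110.1 CPM. DMSO replicate 1 was the highest library of the 12. *SRF* fell by 1.07 with BKM120 (SE 0.20, adjusted p = 0.013), with differences of 0.06 with JQ1 (SE 0.19) and -0.40 with 18DS (SE 0.20, adjusted p = 0.194). Without BKM120 replicate 1 the BKM120 difference was -1.03 (adjusted p = 0.058). Of 11 tested SRF cofactors and regulators, 1 rose and 1 fell with JQ1 (2.63% and 3.45% of all tested genes), 1 fell with BKM120 (4.14%) and 1 rose with 18DS (9.96%). *ETS2*, which encodes an ETS factor, fell by 0.78 with JQ1 (SE 0.22) and by 1.08 with BKM120 (SE 0.23). *ACTB*, the beta-actin gene and an SRF target, rose by 0.32 with JQ1 (SE 0.07) and by 0.45 with 18DS (SE 0.07), and *ELK3*, a ternary complex factor, differed by 0.49 with BKM120 (adjusted p = 0.0502).

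The NR4A genes encode orphan nuclear receptors, and their low levels limit what can be read. *NR4A2* (ENSG00000153234) had 6, 4 and 5 reads in DMSO, 6, 2 and 4 with JQ1, 15, 27 and 19 with BKM120 and 8, 8 and 8 with 18DS. The BKM120 libraries were above all others, at 2.41 to 3.99 CPM against 0.364 to 1.40 CPM. It passed the filter through the BKM120 libraries alone, so its log2 difference of 2.03 with BKM120 (SE 0.45) is a description with no test. The differences were -0.31 with JQ1 (SE 0.59) and 0.66 with 18DS (SE 0.52). *NR4A1* (ENSG00000123358), the founding member, had 18, 18 and 19 reads in DMSO, 12, 13 and 6 with JQ1, 10, 6 and 8 with BKM120 and 9, 4 and 5 with 18DS. It reached the filter's level in all 3 DMSO libraries and in 2 of the others, and would not have passed without DMSO, where it is highest. Its log2 differences from DMSO, -1.61 with 18DS (SE 0.45), -0.80 with JQ1 (SE 0.41) and -1.15 with BKM120 (SE 0.43), are likewise a description. An overlapping non-coding gene on the opposite strand, AC025259.3, had the same count as *NR4A1* in all 12 libraries, so these reads cannot be assigned to either. *NR4A3* had 10 reads in all and was not tested.

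ZFP36 proteins bring the decay machinery to AU-rich transcripts such as those of immediate early genes. *ZFP36L2* (ENSG00000152518) was at 81.3, 80.9 and 75.1 CPM in DMSO, 76.4, 71.8 and 69.5 CPM with JQ1, 61.7, 62.9 and 56.8 CPM with BKM120 and 59.6, 57.2 and 63.0 CPM with 18DS. The BKM120 and 18DS libraries overlapped each other and lay below all of JQ1 and DMSO. It fell by 0.39 with BKM120 (SE 0.09, adjusted p = 0.00416) and by 0.40 with 18DS (SE 0.09, adjusted p = 0.00104), and differed by -0.13 with JQ1 (SE 0.09). *ZFP36L1* (ENSG00000185650) showed another order, at 25.5, 25.8 and 23.99 CPM in DMSO, 21.5, 18.2 and 18.0 CPM with JQ1, 26.9, 22.6 and 29.6 CPM with BKM120 and 19.9, 19.8 and 17.2 CPM with 18DS. All JQ1 and 18DS libraries were below all DMSO and BKM120 libraries. It fell by 0.40 with 18DS (SE 0.13, adjusted p = 0.0262) and differed by -0.39 with JQ1 (SE 0.13, adjusted p = 0.075) and by 0.07 with BKM120 (SE 0.13). The 18DS call was lost without DMSO replicate 1, DMSO replicate 2 or 18DS replicate 3 (adjusted p = 0.0873, 0.0753 and 0.123).

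*ZFP36* (ENSG00000128016), which encodes tristetraprolin, varied widely between libraries of a group. It was at 6.19, 6.44 and 9.83 CPM in DMSO, 12.04, 4.37 and 10.4 CPM with JQ1, 23.0, 15.2 and 12.6 CPM with BKM120 and 31.1, 7.02 and 19.9 CPM with 18DS. All BKM120 libraries were above DMSO, and 18DS replicate 2 lay within the DMSO range. The differences of 1.19 with BKM120 (SE 0.57, adjusted p = 0.26) and 1.41 with 18DS (SE 0.56, adjusted p = 0.117) were not called. Without 18DS replicate 2 the difference with 18DS was 1.79 (adjusted p = 0.0195), and a fit of DMSO and BKM120 alone called the difference with BKM120 (adjusted p = 0.00197). Of 18 tested partners of these proteins in mRNA decay, 1 fell with JQ1 (3.45% of all tested genes did), 2 rose with BKM120 (4.07%), and with 18DS 1 rose (9.96%) and 5 fell (11.0%). *CNOT6L*, a deadenylase of the CCR4-NOT complex, fell by 0.52 with JQ1 (SE 0.11), rose by 0.36 with BKM120 (SE 0.10) and fell by 0.63 with 18DS (SE 0.11). *XRN1*, the cytoplasmic exonuclease that degrades RNA from its 5' end, rose by 0.59 with BKM120 (SE 0.13) and fell by 0.39 with 18DS (SE 0.14), and *CNOT9*, another CCR4-NOT subunit, fell by 0.41 with 18DS (SE 0.09).

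Small Maf proteins lack an activation domain of their own and work as dimers with NRF or BACH factors. *MAFG* (ENSG00000197063) was at 66.7, 62.8 and 78.1 CPM in DMSO, 57.3, 50.7 and 53.5 CPM with JQ1, 53.6, 48.6 and 53.2 CPM with BKM120 and 45.9, 44.4 and 51.0 CPM with 18DS. Every treated library was below every DMSO library, and the 3 treated groups overlapped. *MAFG* fell by 0.36 with JQ1 (SE 0.10, adjusted p = 0.0169), by 0.42 with BKM120 (SE 0.10, adjusted p = 0.00503) and by 0.55 with 18DS (SE 0.10, adjusted p = 7.29e-05). DMSO replicate 3 held the highest value, and without it the JQ1 and BKM120 differences were -0.27 and -0.33 and not called (adjusted p = 0.185 and 0.0589). The JQ1 call was also lost without JQ1 replicate 2 or 3 (adjusted p = 0.108 and 0.0766). *MAFG* overlaps *SIRT7* on the same strand, which had 2747 reads against 4197 for *MAFG*. How many of these reads the genes share was not tested. *MAFK* (498 reads, against 493 for the opposite-strand gene *TMEM184A*) and *MAFF* (80 reads, against 92 for *PLA2G6*) were called in no comparison. The counts of *MAFK* and *TMEM184A* were equal in 8 libraries and differed by at most 2 reads, so these reads cannot be told apart. Those of *MAFF* and *PLA2G6* were equal in 1 library and differed by up to 15 reads, and how many reads they share was not tested.

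Of 6 tested partners of the small Maf proteins, 1 fell with JQ1 (3.45% of all tested genes did) and 2 fell with 18DS (11.0%). *NFE2L2*, which encodes NRF2, fell by 0.56 with 18DS (SE 0.11) and differed by -0.27 with JQ1 (SE 0.11). *KEAP1*, which encodes the adaptor that sends NRF2 for degradation, fell by 0.50 with JQ1 (SE 0.09) and by 0.43 with 18DS (SE 0.09). *BACH1*, the repressor that competes with NRF2 for small Maf proteins, was not called, at 0.44 with JQ1, 0.58 with BKM120 and 0.23 with 18DS.

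ID proteins hold E proteins away from DNA and so restrain differentiation, and the 3 ID genes each followed their own order. *ID1* (ENSG00000125968) was at 30.9, 37.7 and 27.2 CPM in DMSO, 56.8, 45.1 and 51.0 CPM with JQ1, 48.0, 48.3 and 45.5 CPM with BKM120 and 52.9, 44.8 and 48.8 CPM with 18DS. The 3 treated groups overlapped each other and lay above DMSO. It rose by 0.68 with JQ1 (SE 0.11, adjusted p = 8.0e-05), by 0.57 with BKM120 (SE 0.11, adjusted p = 0.00124) and by 0.61 with 18DS (SE 0.11, adjusted p = 0.000127). *ID3* (ENSG00000117318) was at 4.27, 3.54 and 5.83 CPM in DMSO, 11.5, 13.3 and 9.84 CPM with JQ1, 5.15, 5.61 and 5.39 CPM with BKM120 and 10.3, 13.2 and 11.5 CPM with 18DS. JQ1 and 18DS overlapped each other and were above the rest, with BKM120 inside the DMSO range. It rose by 1.33 with JQ1 (SE 0.21, adjusted p = 4.35e-05) and by 1.35 with 18DS (SE 0.21, adjusted p = 1.42e-05), and differed by 0.25 with BKM120 (SE 0.24).

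*ID2* (ENSG00000115738) was at 35.8, 34.1 and 38.8 CPM in DMSO, 46.6, 46.0 and 50.2 CPM with JQ1, 22.2, 24.1 and 18.9 CPM with BKM120 and 46.2, 38.3 and 48.2 CPM with 18DS. The BKM120 libraries were below all others, and the JQ1 libraries were above DMSO. *ID2* rose by 0.40 with JQ1 (SE 0.11, adjusted p = 0.0206) and fell by 0.73 with BKM120 (SE 0.12, adjusted p = 7.67e-05). With 18DS it differed by 0.29 (SE 0.11, adjusted p = 0.0551), and by 0.38 without 18DS replicate 2 (adjusted p = 0.0137), whose level lay within the DMSO range. The JQ1 call was lost without DMSO replicate 1 or 2 or JQ1 replicate 1 or 3 (adjusted p = 0.0511 to 0.125). The E protein genes *TCF3* and *TCF12* were not called against DMSO (differences of -0.13 to 0.12), and *TCF4* fell by 0.45 with 18DS (SE 0.15).

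*BHLHE40* (ENSG00000134107), which encodes a clock-linked repressor, had 35, 36 and 38 reads in DMSO, 14, 17 and 17 with JQ1, 29, 17 and 24 with BKM120 and 19, 26 and 10 with 18DS. It fell by 1.17 with JQ1 (SE 0.32, adjusted p = 0.0183) and by 0.98 with 18DS (SE 0.31, adjusted p = 0.0206), and differed by -0.60 with BKM120 (SE 0.30, adjusted p = 0.223). The JQ1 call was lost without DMSO replicate 2 or 3 or JQ1 replicate 1 or 3 (adjusted p = 0.0598 to 0.117), and the 18DS call without DMSO replicate 2 or 3 or 18DS replicate 1 or 3 (adjusted p = 0.0516 to 0.143). *HES1*, a Notch target, had 19 reads in all, 7 of them in 18DS replicate 1, and was not tested.

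*NFIL3* (ENSG00000165030) encodes a bZIP repressor of immune and clock genes. It was at 41.7, 37.2 and 35.7 CPM in DMSO, 27.0, 24.7 and 23.3 CPM with JQ1, 31.4, 32.0 and 25.9 CPM with BKM120 and 26.2, 16.5 and 15.5 CPM with 18DS. Every treated library was below every DMSO library, and 18DS held the lowest pair. *NFIL3* fell by 0.62 with JQ1 (SE 0.14, adjusted p = 0.00504) and by 0.96 with 18DS (SE 0.15, adjusted p = 1.05e-05), and differed by -0.36 with BKM120 (SE 0.14, adjusted p = 0.106). Without JQ1 replicate 3 the JQ1 difference was -0.56 (adjusted p = 0.051). *CSRNP1*, a nuclear factor induced by AXIN1, was at 2.52 to 10.4 CPM and was called in none of the comparisons with DMSO (0.11 with JQ1, -0.60 with BKM120, 0.31 with 18DS).

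*MIDN* (ENSG00000167470) encodes midnolin, which carries many immediate early proteins, Fos and EGR1 among them, to the proteasome without ubiquitin. It was at 32.5, 36.7 and 34.0 CPM in DMSO, 91.7, 74.0 and 76.1 CPM with JQ1, 25.0, 21.1 and 24.3 CPM with BKM120 and 90.6, 89.4 and 101 CPM with 18DS. JQ1 and 18DS overlapped far above DMSO, and all BKM120 libraries were below it. *MIDN* rose by 1.23 with JQ1 (SE 0.10, adjusted p = 4.24e-11) and by 1.45 with 18DS (SE 0.10, adjusted p = 1.59e-13) and fell by 0.56 with BKM120 (SE 0.11, adjusted p = 0.00151). *RHOB* (ENSG00000143878), a rapidly induced small GTPase gene, was at 9.13, 9.66 and 7.998 CPM in DMSO, 17.5, 13.6 and 15.9 CPM with JQ1, 9.18, 9.01 and 8.80 CPM with BKM120 and 16.9, 17.9 and 20.2 CPM with 18DS. JQ1 and 18DS were above the rest, and BKM120 lay inside the DMSO range. It rose by 0.81 with JQ1 (SE 0.16, adjusted p = 0.00105) and by 1.03 with 18DS (SE 0.16, adjusted p = 1.1e-05), and differed by 0.01 with BKM120 (95% confidence interval -0.35 to 0.37).

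*SIK1* (ENSG00000142178), a cyclic AMP-induced kinase gene that restrains CREB coactivators, had 34, 24 and 25 reads in DMSO, 22, 14 and 17 with JQ1, 20, 14 and 8 with BKM120 and 10, 3 and 18 with 18DS. It fell by 1.42 with 18DS (SE 0.39, adjusted p = 0.00783), and by 1.05 without 18DS replicate 2, where the call was lost (adjusted p = 0.0557). The differences of -0.63 with JQ1 and -0.94 with BKM120 were not called. Among the other tested SIK genes, CREB coactivators and their upstream kinase, 6 in all, 1 rose with 18DS (9.96% of all tested genes did), *CRTC1* (1.1, SE 0.38). *CRTC3* (-0.42, -1.0 and 0.02 with JQ1, BKM120 and 18DS) and *STK11* (-0.01, 0.34 and 0.12) were not called. *GADD45B*, a stress sensor upstream of MAP kinases, was at 51.8 to 82.8 CPM, with differences of 0.16, -0.20 and -0.04 that were not called. *CCN1*, a matricellular protein gene, and *ARC*, a synaptic gene, had 22 and 13 reads in all and were not tested.

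**Figure D3:**
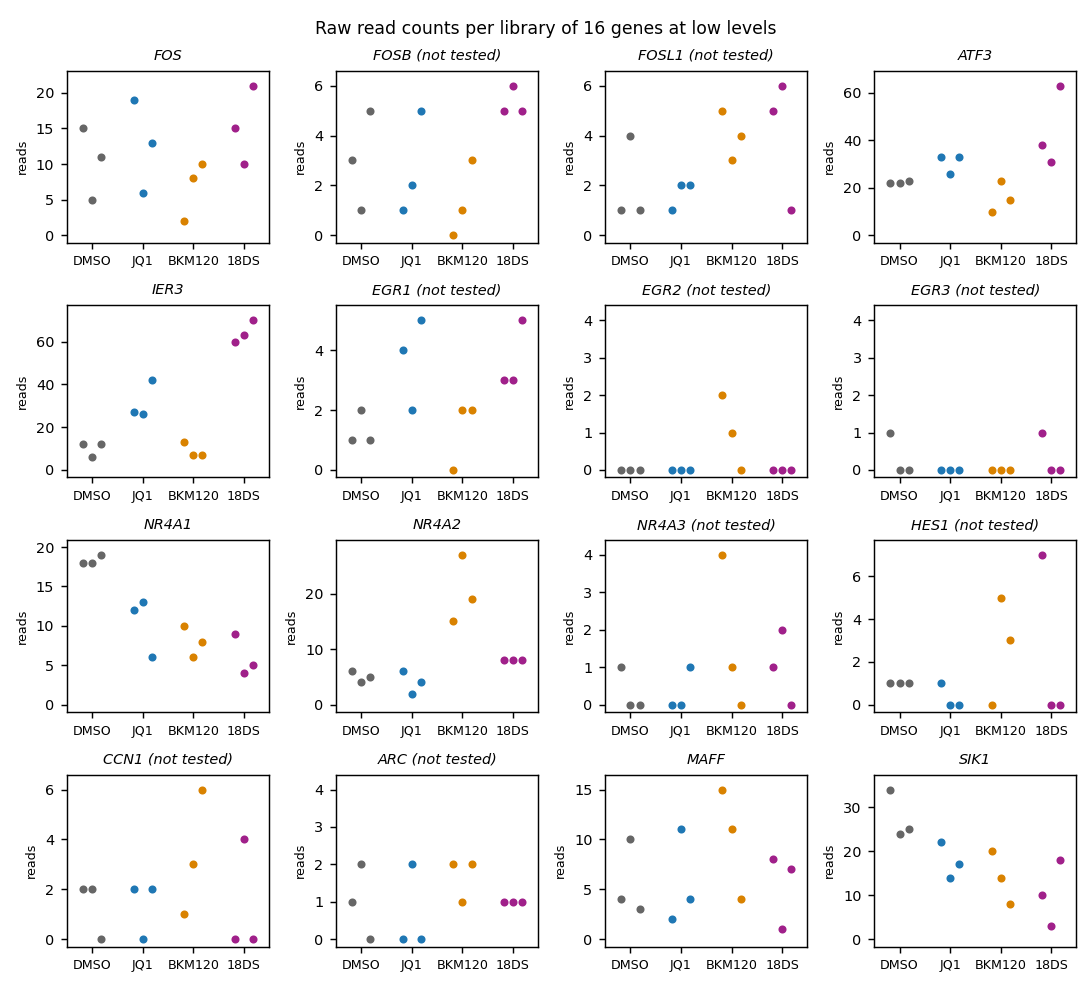
Raw reads per library (y axis, each with its own scale) of 16 genes at low levels, by group (x axis), 1 point per library. *IER3* reads are highest with 18DS, *NR4A2* reads with BKM120 and *NR4A1* reads in DMSO, while *EGR1*, *EGR2*, *EGR3*, *ARC* and *NR4A3* have 5 reads or fewer in every library.

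The direct comparison of JQ1 with BKM120 tests where the BET and PI3K inhibitors gave different levels, at doses that differ. Of the 29 genes, 14 were higher with JQ1 (7.19% of all tested genes were) and 2 were lower (7.42%). The differences of *MIDN* (1.78, SE 0.11), *IER3* (1.76, SE 0.33), *IER5* (1.74, SE 0.09), *SRF* (1.13, SE 0.20), *ID2* (1.13, SE 0.12), *JUND* (1.1, SE 0.10) and *ID3* (1.08, SE 0.21) were the largest of those higher with JQ1. *RHOB*, *JUNB*, *IER2* and *JUN* were also higher, by 0.80, 0.69, 0.53 and 0.38. The log2 difference of *NR4A2*, which is counted among the lower genes but passed the filter through the BKM120 libraries alone, was -2.34 (SE 0.46) and is a description. *ATF3* (0.91), *ZFP36L1* (-0.45), *ZFP36L2* (0.26) and *GADD45B* (0.36) were called too, and each lost its call when some single library was left out, with adjusted p-values of up to 0.235, 0.114, 0.181 and 0.122. For *ID1* the difference was 0.11 (95% confidence interval -0.11 to 0.33), for *MAFG* 0.06 (-0.14 to 0.26) and for *IER5L* 0.33 (-0.06 to 0.71), and none of these was called. *CSRNP1* differed by 0.72 (SE 0.26, adjusted p = 0.0626), and by 0.71 without 18DS replicate 2 (adjusted p = 0.0488).

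18DS and JQ1 were given at the same dose and time. Of the 29 genes, 4 were higher with 18DS than with JQ1 (2.37% of all tested genes were) and 0 were lower by edgeR (1.78%). At an unadjusted p under 0.05, 4 were lower (*GADD45B*, *NFIL3*, *SRF* and *ZFP36L2*), and DESeq2's Wald test called 0 lower. The 4 were *JUN* (0.56, SE 0.09, adjusted p = 0.000312), *JUNB* (0.39, SE 0.11, adjusted p = 0.0313), *IER3* (1.03, SE 0.24, adjusted p = 0.0122) and *IER5L* (0.59, SE 0.18, adjusted p = 0.0481). The *JUN* call was kept with any 1 library left out. *JUNB* was lost without JQ1 replicate 1, JQ1 replicate 2 or 18DS replicate 3 (adjusted p = 0.116, 0.178 and 0.0841), *IER3* without JQ1 replicate 2, JQ1 replicate 3 or 18DS replicate 3 (0.0647, 0.0526 and 0.0643), and *IER5L* without any 1 of 8 libraries (up to 0.225), 18DS replicate 2 among them (0.0694). Other genes that had risen with JQ1 were not called against it. *JUND* differed by 0.05 (95% confidence interval -0.14 to 0.24), *ID3* by 0.02 (-0.36 to 0.40) and *ID1* by -0.06 (-0.28 to 0.16). For *IER2* the difference was 0.09 (-0.06 to 0.23) and for *ID2* -0.11 (-0.32 to 0.11). *RHOB* differed by 0.22 (-0.08 to 0.52) and *MIDN* by 0.22 (0.03 to 0.41, edgeR adjusted p = 0.184), so that a difference of 0.40 lies inside both intervals. *IER5* differed by 0.25 (0.08 to 0.42, adjusted p = 0.0845), and by 0.33 without 18DS replicate 2 (adjusted p = 0.0339). *NFIL3* differed by -0.35 (-0.66 to -0.04), and by -0.63 without 18DS replicate 1 (adjusted p = 0.00709).

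Against BKM120, which was given at another dose, 13 of the 29 genes were higher with 18DS (4.64% of all tested genes were) and 3 were lower (6.67%). *IER3* (2.78, SE 0.30), *MIDN* (2.00, SE 0.11), *IER5* (1.98, SE 0.09), *ATF3* (1.41, SE 0.30), *JUND* (1.15, SE 0.10), *ID3* (1.1, SE 0.21) and *JUNB* (1.08, SE 0.11) stood highest. *ID2*, *RHOB*, *JUN*, *IER5L*, *CSRNP1* and *IER2* were higher by 1.02, 1.02, 0.94, 0.92, 0.92 and 0.61. The lower genes were *NFIL3* (-0.61), *ZFP36L1* (-0.47) and *NR4A2* (-1.37), the last a description because of how it passed the filter. These 3 and *CSRNP1* each lost the call when some single library was left out, with adjusted p-values of up to 0.0669, 0.11, 0.126 and 0.115. *SRF* differed by 0.67 (SE 0.20, adjusted p = 0.0708), and was called without BKM120 replicate 2 (0.89, adjusted p = 0.00863) or without 18DS replicate 2 (0.81, adjusted p = 0.0457).

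A pair of comparisons that have no library in common can be set side by side. JQ1 against DMSO and 18DS against BKM120 are such a pair, with 14 and 16 of the 29 genes called. *NR4A2*, whose difference is a description, is among the 16. Without it and *NR4A1*, 13 of 27 genes were higher and 2 lower with 18DS than with BKM120. The calls met in 11 genes, 10 higher in both and 1 lower in both, which is 78.6% of the first list and 68.8% of the second, and 0 were called in opposite directions. Over all tested genes 478 calls met, 59.7% of the first list and 32.1% of the second. The 10 were *JUN*, *JUND*, *IER2*, *IER3*, *IER5*, *IER5L*, *ID2*, *ID3*, *MIDN* and *RHOB*, and the gene lower in both was *NFIL3*. *ID1* was outside this group, at 0.68 for JQ1 against DMSO and 0.05 for 18DS against BKM120 (95% confidence interval -0.17 to 0.27). Across the 29 genes the 2 sets of log2 fold changes had a Pearson correlation of 0.83 and a Spearman correlation of 0.864, with 27 of 29 differences of the same sign, against a Pearson correlation of 0.585 across all tested genes, where genes are not independent replicates. These 29 include *NR4A1* and *NR4A2*, and the correlations were not computed without them.

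The other pair, BKM120 against DMSO and 18DS against JQ1, had 11 and 4 of the 29 genes called. *NR4A2* is among the 11, and without it and *NR4A1*, 3 of 27 genes were higher and 7 lower with BKM120 than in DMSO. Both comparisons called 3 genes, 2 in the same direction and 1 in opposite directions. The 2 are 18.2% of the first list and 50% of the second, against 21.9% and 43.2% for calls in the same direction over all tested genes. *JUN* (0.58 and 0.56) and *IER5L* (0.78 and 0.59) were higher in both, while *JUNB* was lower with BKM120 than in DMSO (-0.45) and higher with 18DS than with JQ1 (0.39). Only *JUN* kept both calls with any 1 library left out. *IER5L* and *JUNB* each lost either call without some single library. *ID2* had -0.73 for BKM120 against DMSO and -0.11 for 18DS against JQ1 (95% confidence interval -0.32 to 0.11), and *MIDN* had -0.56 and 0.22 (0.03 to 0.41). The Pearson correlation across the 29 genes was 0.634 and the Spearman correlation 0.448, with 16 of 29 differences of the same sign, against a Pearson correlation of 0.344 across all tested genes. These values include *NR4A2* (2.03 and 0.97) and *NR4A1* (-1.15 and -0.81), which passed the filter only through the group where they are high. The correlations were not computed without them.

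**Figure D4:**
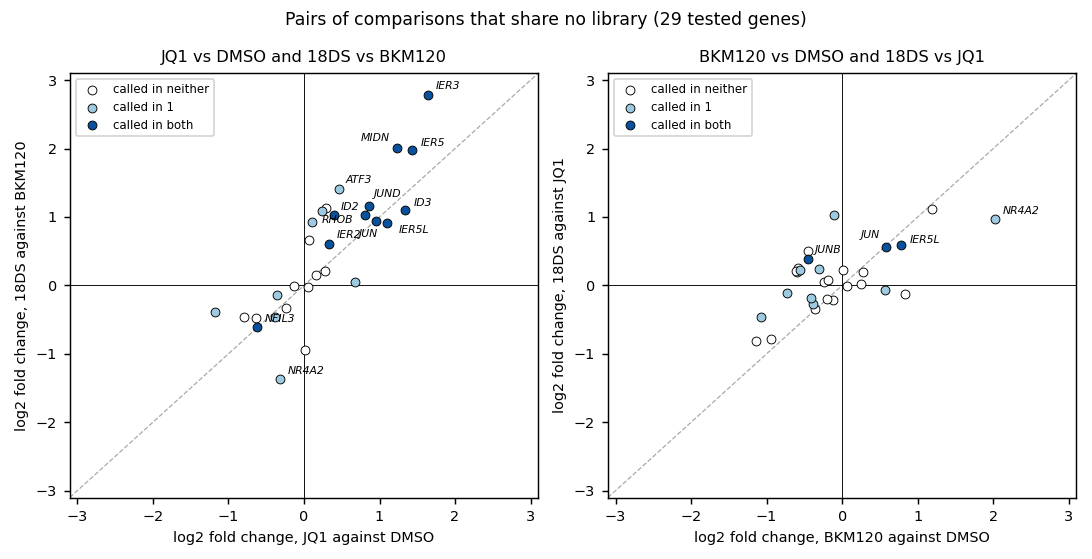
Log2 fold changes of the 29 tested genes in 2 pairs of comparisons that share no library, with 1 comparison on each axis and the dashed line marking equal values. On the left, most genes called in both comparisons lie in the upper right, with *NFIL3* in the lower left. On the right, *JUN* and *IER5L* lie in the upper right and *JUNB* in the upper left.

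Adding the log2 changes of JQ1 and BKM120 gave a further reference for 18DS, with the BKM120 dose differing. Of the 29 genes, 2 were higher with 18DS than this sum (0.0683% of all tested genes were) and 0 were lower by edgeR (0.0531%). At an unadjusted p under 0.05, 1 was lower (*ID1*), and DESeq2's Wald test called 0 lower. *JUNB* lay 0.85 above it (SE 0.16, adjusted p = 0.0145) and *MIDN* 0.78 above it (SE 0.15, adjusted p = 0.0163). Both calls were lost when some single libraries were left out, *JUNB* without DMSO replicate 2 or 3 or JQ1 replicate 1 or 2 (adjusted p = 0.05 to 0.0794) and *MIDN* without DMSO replicate 2 or 3, JQ1 replicate 2 or 3 or 18DS replicate 3 (0.055 to 0.0732). Without 18DS replicate 2, 4 of the 29 genes were called, *IER5* (0.63) and *ID2* (0.72) in addition, and 31 of all genes were. *JUN* met the sum, with a difference of -0.02 (95% confidence interval -0.29 to 0.25). *ID1*, which had risen with each compound, was 0.63 below the sum (SE 0.16, adjusted p = 0.109), which was not called.

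Other genes of the same signalling route were read from lists written for this purpose. Of 30 tested genes of the MAP kinase cascade, 1 rose with JQ1 (2.63% of all tested genes did), and with 18DS 3 rose (9.96% of all) and 1 fell (11.0%). *MAP3K3* rose by 0.72 (SE 0.16) and *MAP2K2* by 0.45 (SE 0.10) with 18DS. Of 36 other rapidly induced genes, 8 rose and 5 fell with JQ1 (2.63% and 3.45% of all tested genes), 9 rose and 3 fell with BKM120 (4.07% and 4.14%), and 12 rose and 7 fell with 18DS (9.96% and 11.0%). The median log2 fold changes of these 36 were 0.01 with JQ1, -0.07 with BKM120 and 0.21 with 18DS. *SERTAD1*, a transcriptional co-regulator, rose from 3.00 ± 0.900 to 32.2 ± 1.92 CPM with JQ1 and to 53.6 ± 3.43 CPM with 18DS (SD, n = 3), and was at 3.51 ± 1.47 CPM with BKM120. *BTG1*, an antiproliferative gene and FOXO target, rose by 0.95 with BKM120 (SE 0.07) and by 0.38 with 18DS (SE 0.07), and differed by -0.12 with JQ1. *HEXIM1*, which encodes an inhibitor of P-TEFb, rose by 1.66 with JQ1 (SE 0.11) and 1.95 with 18DS (SE 0.11), and differed by -0.04 with BKM120 (SE 0.12).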

How the data were processed

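The authors deposited raw counts per Ensembl gene, whole numbers with no normalization, in 1 table for the 12 libraries (3 per group). Per the submitters' processing notes they used HISAT2 2.1.0 and the genome build hg19, with cutadapt 1.7, SAMtools 1.9, limma, Subread, featureCounts, FastQC 0.11.5 and bcl2fastq 2.17.1.14. The strand setting is not given in the sources used here, nor is the annotation release. Near-equal counts of genes on opposite strands show that the table does not separate them.

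The test was that of edgeR 4.0.16 in R 4.3.3: filterByExpr (minimum count 10, minimum total 15), TMM scaling (factors 0.971 to 1.033) and 1 robust quasi-likelihood fit over all 12 libraries. The p-values were adjusted by Benjamini and Hochberg over 13180 genes per comparison. CPM values use TMM-scaled library sizes. In 1 simulated data set of 13180 genes, 200 genes were changed with JQ1 and no other group differed from DMSO. For JQ1 against DMSO, the test found 55.7%, 79.7% and 92.4% of the changes of 1.5-fold, 2-fold and 4-fold size. Of 166 calls 15 (9.04%) were false, a larger share than the adjusted p threshold of 0.05 aims at. The data themselves had 801 calls in this comparison, so these rates hold for the simulated setting only. Symbols matched 51662 identifiers. Overlaps of genes, by name, come from GENCODE 29 and promoters from RefSeq, both on GRCh38.

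The genes and lists were chosen with earlier results of these data known. All 38 genes are named. Values per library are given for those that average 5 CPM or more and have a call against DMSO, and reads for several others. Up to 3 genes per companion list, those with the smallest adjusted p, are named, except where a gene is not reported here. The comparison of 18DS with the sum of JQ1 and BKM120 was added after the data were seen. Alternatives were each library left out, fits of 2 groups, other filters, a replicate block and the Wald test of DESeq2 1.42.0. Other scalings in the edgeR fit were relative log expression (RLE) factors computed in edgeR, upper-quartile factors and library totals. Figures were drawn with Python 3.11.15 and matplotlib 3.10.9.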

Additional observations from a re-analysis of the deposited data

Results flagged for a closer look

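*JUNB* and *MIDN* differed between 18DS and the sum of JQ1 and BKM120 by the test of that difference in edgeR. *JUNB* lay 0.85 above the sum on the log2 scale and *MIDN* 0.78 above it. Both calls were lost when some single libraries were left out, with edgeR adjusted p of up to 0.0794 and 0.0732. BKM120 was given at another dose than 18DS, and this comparison was added after the data were seen. In both genes the BKM120 libraries were below DMSO and the 18DS libraries were above it.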

How the results depend on the processing

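Depth limits these results most for genes of few reads: *FOSB*, *FOSL1*, the EGR genes, *NR4A3*, *HES1*, *CCN1* and *ARC* could not be tested. Over the 29 tested genes of the set and 7 comparisons, no log2 fold change past the threshold reversed its sign under any setting. When 1 library was left out, 88 values of these genes lost and 17 gained a call, and 15 lost and 14 gained one under the other settings. The genes of the set called in 18DS against JQ1 numbered 2 with DESeq2's Wald test instead of 4, where *IER3* had no adjusted p, and 1 to 5 with 1 library left out. With 1 library left out, calls over all genes were 504 to 1021 for JQ1 against DMSO, 482 to 1564 for BKM120 against DMSO, 105 to 1027 for 18DS against JQ1 and 1156 to 2316 for JQ1 against BKM120. For 18DS against the sum of JQ1 and BKM120, 45 genes were called with no filter and 3 to 31 with 1 library left out, and 0 to 4 of the set. The causes were not tested. Library totals and upper-quartile factors moved the median of all genes by -0.0719 to 0.0492. Of 18 pairs of libraries with the same replicate number, 1 had deviations correlated above 0.1 (-0.163 to 0.116), and 3 of 12 libraries correlated best with their own number, so the numbers were not taken to pair the libraries. With a replicate block, 14, 11, 19, 4, 16 and 15 genes of the set were called in JQ1, BKM120 and 18DS against DMSO, 18DS against JQ1 and against BKM120, and JQ1 against BKM120, and 743, 1042, 2667, 522, 1445 and 1827 of all genes. With the replicate block, 2 of the set and 16 of all genes were called in 18DS against the sum of JQ1 and BKM120.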
